A study of Mus musculus with 8 samples.

Results

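Transcripts of vascular smooth muscle cells and pericytes, the mural cells that wrap arteries and capillaries, were followed in ischemic leg muscle. The set holds 35 gene symbols of 24848 in the deposited tables, chosen as known genes of the contractile apparatus of smooth muscle or of pericytes. All 35 had a row, and 34 of them were among the 13569 genes with enough reads to test. The RNA came from tibialis anterior muscle of male Leprdb/db mice, a leptin receptor mutant that becomes obese and diabetic. Every animal had hind limb ischemia surgery, and muscle was collected on day 28. The placebo group (4 libraries) ate a control diet without drug. The praliciguat group (4 libraries) ate a diet with 75 ppm praliciguat, a stimulator of soluble guanylate cyclase, at a strength aimed at the plasma peak of oral dosing with 10 mg/kg/day. Both diets ran for 31 days from day -3. The leptin receptor mutation and the surgery were thus shared by both groups, and muscle without ischemia or from lean mice was not analysed here. The labels used here give no age. They do not state that every library is a separate animal, and p-values therefore measure library-to-library spread only, which may be technical.

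Smooth muscle contracts when calcium enters through voltage-gated channels or leaves internal stores, activates myosin light chain kinase and so lets smooth muscle myosin pull on smooth muscle actin; myosin phosphatase reverses the step. Cyclic GMP, the product of soluble guanylate cyclase, acts through its kinase to lower calcium and raise the phosphatase activity, which relaxes the vessel. The contractile genes are driven by serum response factor (SRF) with its cofactor myocardin. Pericytes, which sit on capillaries, are recruited by PDGF-B from endothelium through the receptor PDGFR-beta and carry few contractile proteins.

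Total expected counts ran from 21099764 (placebo replicate 1) to 31896205 (praliciguat replicate 3). A gene with 0 counts could lie up to 0.0875 to 0.134 CPM (3 counts in the deepest and in the shallowest library; counting error only). The muscle label fits the 8 markers of adult fibres, whose summed level was 123574 to 171209 CPM in the 8 libraries. The sample titles carry numbers in a lower and an upper run, with placebo and praliciguat replicates 1 and 2 in the lower and replicates 3 and 4 in the upper; the labels do not say what the runs are. Praliciguat replicate 3 stood apart in markers of other cells: its summed macrophage markers were 671 CPM and its summed fibroblast markers 6145 CPM, against at most 228 and 2910 CPM in placebo.

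In TPM, the length-scaled unit that allows comparison between genes, the set ran from 0.10 for Myocd to 589.5 for Nexn (mean of 8 libraries). Nexn (nexilin) and Synpo2 (125), both actin-binding proteins that striated muscle fibres also make, and Rgs5 (280.5), a brake on G protein signalling and the best known pericyte transcript, led the set. The classic smooth muscle proteins followed: Myl9, the regulatory myosin light chain, at 102, Acta2, smooth muscle alpha-actin, at 74.0 and Tagln, transgelin, at 68.2 TPM. Myh11, the smooth muscle myosin heavy chain, was at 19.9 TPM, close to the PDGF receptor gene Pdgfrb (19.2) and its ligand Pdgfb (18.4). Of the pericyte markers, Mcam, an adhesion molecule, was at 50.05 TPM and Cspg4, a proteoglycan, at 4.33 TPM. The cofactor Myocd had 2 to 12 reads per library and was not tested.

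**Figure D1:**
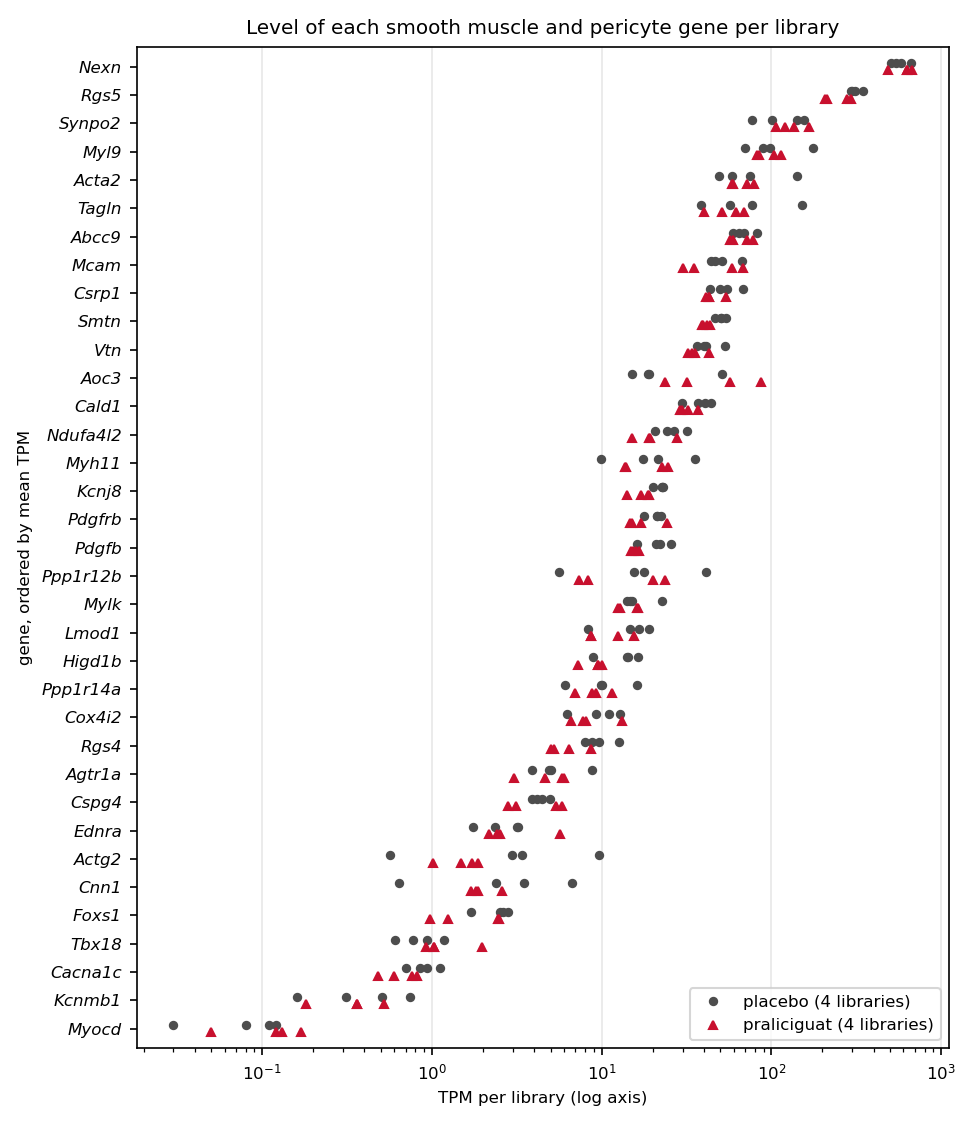
TPM (log axis) of the 35 smooth muscle and pericyte genes in each of the 4 placebo libraries (grey circles) and 4 praliciguat libraries (red triangles), ordered by mean TPM. Levels ran from 0.10 TPM for Myocd to 589.5 TPM for Nexn, and for most genes the symbols of both groups were intermixed.

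The diets were compared for the amount of each mural cell transcript in ischemic muscle. No gene of the set passed the test. The edgeR quasi-likelihood test with Benjamini-Hochberg adjustment over all 13569 genes called 0 members lower and 0 higher, with a background of 0.0% of all genes in each direction; the smallest adjusted p of a member was 0.566. At an unadjusted p under 0.05, 4 members were lower (Pdgfb, Rgs4, Smtn and Kcnj8; background 3.78% of all genes lower) and 0 were higher (background 1.95%; 5.73% of all genes in either direction). DESeq2 called 0 members at its adjusted threshold (background 0.842% lower and 0.111% higher), with 5 lower and 1 higher unadjusted (the same 4 with Actg2, and Aoc3; background 3.88% and 2.48%). Limma-voom called 0 members (background 0.0%), with the same 4 lower and 0 higher unadjusted (background 4.15% and 1.86%). Fold changes leaned downwards: 28 of 34 tested members had a log2 fold change below 0 (background 44.8% of all genes), with a median of -0.21 against 0.020 over all genes tested. Averaged over the 34 members, log2 CPM stood at 4.56 ± 0.244 for the placebo libraries and at 4.402 ± 0.0917 for the praliciguat libraries (SD, n = 4 each), a difference of -0.16 that was smaller than the SD in placebo. It rested largely on 1 library. Without placebo replicate 1, 21 of 34 members were below 0, the median was -0.094 and the difference in mean log2 CPM was -0.043. Markers of several other cells were also mostly below 0 (background 44.8% of all genes), with 0 past the threshold in each list. They were 12 of 12 endothelial (median -0.33), 4 of 4 Schwann cell (-0.67), 4 of 4 tendon (-0.74), 5 of 5 red blood cell (-0.23) and 6 of 8 regenerating muscle markers (-0.64). Their summed levels in placebo and with praliciguat were 79.6 to 215 and 38.3 to 127 CPM for Schwann cells, 138.6 to 218 and 9.06 to 176 CPM for tendon, 176 to 436 and 162 to 418 CPM for red blood cells, and 86.8 to 159 and 55.7 to 118 CPM for regenerating muscle. Regenerating muscle markers did not move 1 way: Myh3 was lower (-2.72 ± 0.54 SE) and Myod1 higher (0.69 ± 0.18 SE). In both the groups did not overlap (background 2.54% lower and 1.32% higher). Other lists did not lean downwards. Adipocyte (6 of 6), macrophage (7 of 7) and fibroblast markers (9 of 10) were above 0, and 4 of 8 adult fibre markers were below 0 (median 0.015). No list had a marker at 0 in all libraries, and the part of these lists in the lean of the members was not tested. With 0 members past the threshold, a difference in mural cell RNA was not established. In bulk muscle, fewer mural cells and less RNA per mural cell could not be told apart either.

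**Figure D2:**
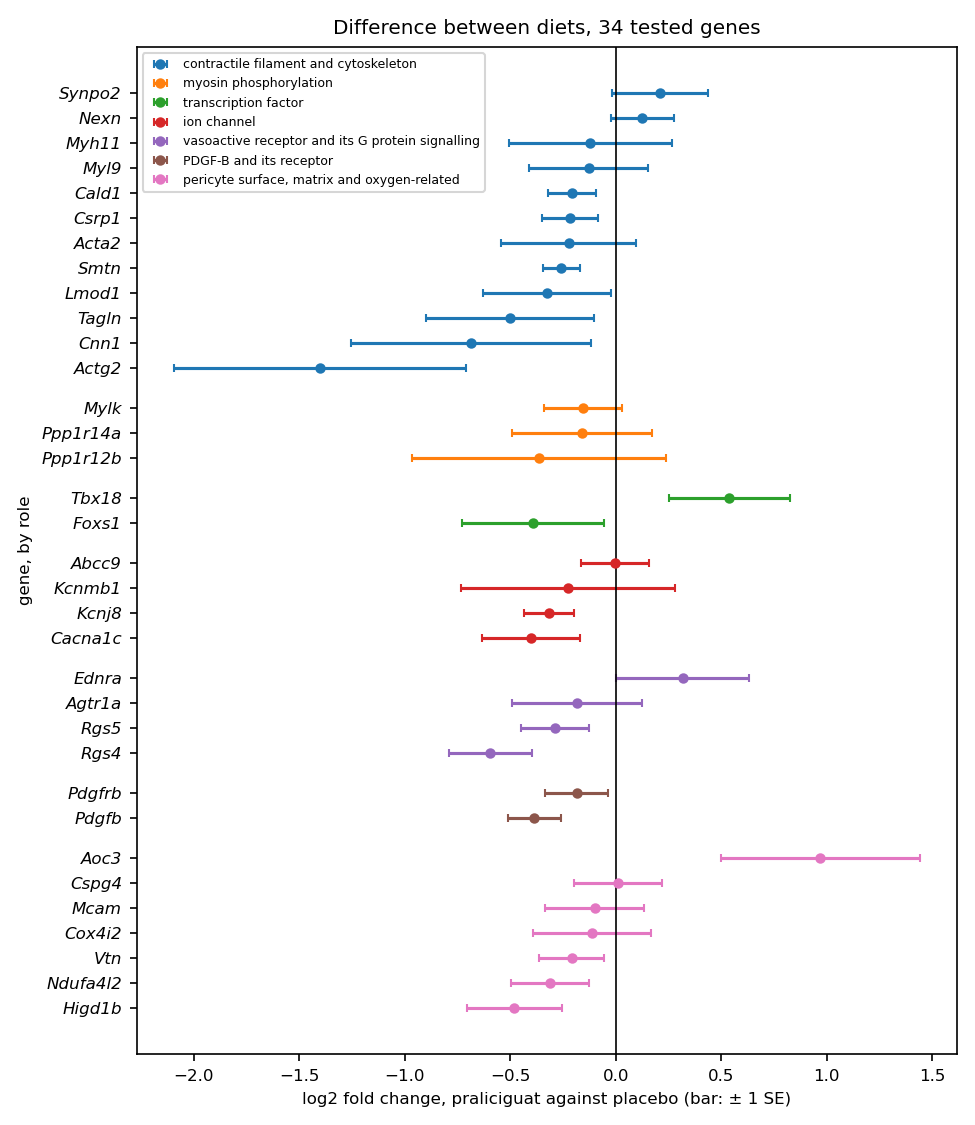
Log2 fold change of praliciguat against placebo from edgeR for the 34 tested members, grouped and coloured by role (point, estimate; bar, ± 1 SE; n = 4 libraries per group). Most points lie left of 0, from -1.40 for Actg2 to 0.97 for Aoc3, and none passed the adjusted threshold.

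Among the 12 genes of the contractile filament and cytoskeleton, 10 had a fold change below 0 (median -0.22), and 0 passed over all genes. The difference in their mean log2 CPM was -0.19, and its sign turned without placebo replicate 1 (0.028). Acta2 was at 188, 82.5, 62.8 and 97.5 CPM in placebo replicates 1 to 4 and at 101, 113, 75.4 and 79.6 CPM with praliciguat. Placebo replicate 1 was the highest and placebo replicate 3 the lowest library, and the groups overlapped (log2 fold change -0.22 ± 0.32 SE, edgeR adjusted p = 0.984). For Myh11 the placebo libraries held 127, 65.9, 33.9 and 74.9 CPM and the praliciguat libraries 92.2, 87.4, 47.7 and 49.9 CPM. All 4 praliciguat values fell inside the placebo range (-0.12 ± 0.39 SE). Tagln read 119, 47.0, 29.0 and 58.8 CPM against 56.7, 51.9, 38.4 and 32.2 CPM, again inside the placebo range (-0.50 ± 0.40 SE). In these 3 genes placebo replicate 1 was the highest and placebo replicate 3 the lowest library, and the difference between diets was smaller than the gap between placebo replicates 1 and 3. Without placebo replicate 1 the log2 fold changes were 0.19 for Acta2, 0.26 for Myh11 and 0.00067 for Tagln, so the sign of the difference turned with 1 library.

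Actg2 and Cnn1, smooth muscle gamma-actin and a calponin, marked the same libraries more steeply at low levels. Actg2 was at 6.15, 2.26, 0.343 and 1.85 CPM in placebo and at 1.26, 1.17, 0.612 and 0.958 CPM with praliciguat, with the largest fold change of the set by size in this fit (-1.40 ± 0.69 SE, edgeR adjusted p = 0.928). It was -0.57 without placebo replicate 1, and -0.79 with limma-voom, where that of Aoc3 (0.97) was larger. Cnn1 stood at 6.77, 2.53, 0.618 and 3.45 CPM against 1.80, 2.80, 1.75 and 1.92 CPM (-0.69 ± 0.57 SE), at -0.086 without placebo replicate 1 and at -0.22 with limma-voom. The highest library exceeded the lowest 17.9-fold for Actg2 and 10.96-fold for Cnn1. Actins are similar in coding sequence. The expected counts of Acta2 and Actg2 were whole numbers in all 8 libraries (tolerance 0.001), as were those of the other members. Only 0.765% (praliciguat replicate 1) to 0.930% (praliciguat replicate 3) of all genes had counts that were not whole. Whole counts therefore cannot show that actin reads were assigned without ambiguity.

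Smtn, smoothelin, a cytoskeletal protein of contractile smooth muscle, was the 1 member whose groups did not overlap. Its levels were 95.5, 93.0, 84.9 and 79.5 CPM in placebo and 72.6, 74.4, 70.2 and 77.7 CPM with praliciguat. Each praliciguat value was under the lowest placebo value (-0.26 ± 0.088 SE, edgeR adjusted p = 0.609), a separation found in 2.54% of all genes in that direction and 1.32% in the other. The gap between the groups was narrow, and with upper quartile scaling they overlapped. Nexn was at 944, 758, 743 and 812 CPM in placebo and at 1013, 963, 665 and 911 CPM with praliciguat (0.12 ± 0.15 SE). Synpo2 (0.21) was the other member of this role above 0. Both are also made by muscle fibres. Cald1, caldesmon, Csrp1, a LIM protein, and Lmod1, leiomodin, had -0.21, -0.22 and -0.33. Placebo replicate 1 highest with placebo replicate 3 lowest was not seen in Nexn, Synpo2, Smtn, Cald1 or Csrp1.

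The order of libraries was shared by a block of contractile genes. In 9 of the 34 tested members (26.5%) placebo replicate 1 was the highest and placebo replicate 3 the lowest of the 8 libraries, a pattern picked out after the values were seen and found in 1.95% of all genes tested. They were Acta2, Actg2, Myh11, Myl9, Tagln, Cnn1, Lmod1, Ppp1r14a, an inhibitor of myosin phosphatase, and Kcnmb1, the beta subunit of the smooth muscle potassium channel opened by calcium. In these genes placebo replicate 1 exceeded the mean of the other 3 placebo libraries between 1.43-fold (Lmod1) and 4.14-fold (Actg2). Myl9 was at 88.9, 47.0, 33.8 and 48.4 CPM in placebo and at 55.4, 61.3, 40.6 and 42.1 CPM with praliciguat (-0.13 ± 0.28 SE; 0.22 without placebo replicate 1). Placebo replicate 1 was also the shallowest library and had the highest mean of the Schwann cell (4.77 log2 CPM, against 3.65 to 3.97 in the other placebo libraries) and endothelial markers (5.75 against 5.34 to 5.60); the part of depth or of cell content in these values was not tested.

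**Figure D3:**
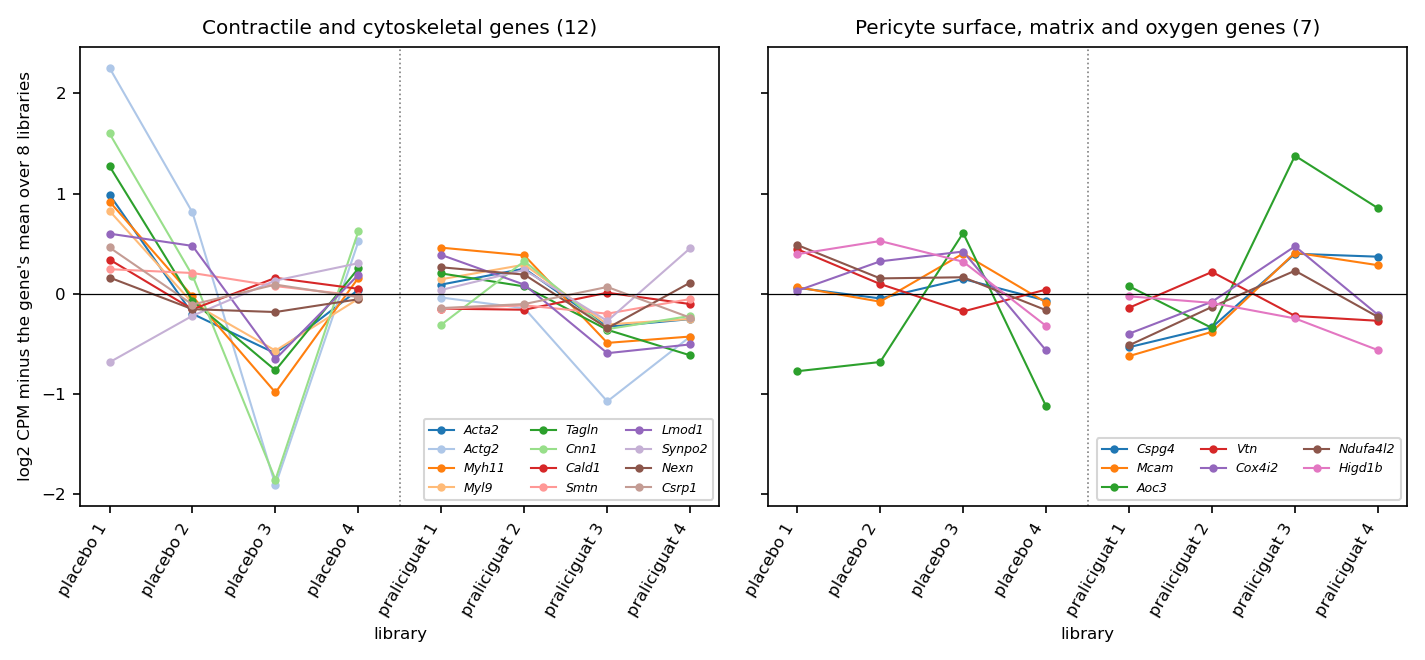
Log2 CPM minus each gene's mean over the 8 libraries, for the 12 contractile and cytoskeletal genes (left) and the 7 pericyte surface, matrix and oxygen-related genes (right); lines only join the points of a gene. Placebo 1 is high and placebo 3 low for a block of contractile genes such as Acta2, Myh11 and Tagln, while Aoc3, Mcam and Cspg4 are high in praliciguat 3 and 4.

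Because these genes moved together across libraries, the start regions in RefSeq (GRCm38.p6; 300 bases, of which 250 lie before a start site) were read for CArG boxes, the sites of SRF. A CArG box is 2 C, then 6 bases that are A or T, then 2 G, the same on both strands; a near match had 1 other base among the 6. The table held windows for 22 of the 35 members (27 windows), and none for Aoc3, Actg2, Tagln, Pdgfrb, Nexn, Pdgfb, Foxs1, Higd1b, Agtr1a, Cox4i2, Myocd, Ndufa4l2 or Myh11. An exact box was found in 1 of these windows (3.70%; 1.63% of 32851 windows of all genes), that of Myl9. An exact or near match was found in 5 windows of 4 members, Myl9, Acta2, Cacna1c and Tbx18 (18.5%; 9.98% of all windows). Of the 9 genes of the block above 6 had a window, and 4 of these held no match (Cnn1, Kcnmb1, Lmod1 and Ppp1r14a). Myl9 and Acta2 are shown as the 2 with a match; each holds 2, in capitals, with positions counted back from the window's start site. In Myl9 (chr2:156775284-156775407, plus strand, upstream of the annotated gene) the exact box begins at -161 and the near match at -99. In Acta2 (minus strand) near matches begin at -84 (chr19:34255438-34255467) and at -34 (chr19:34255388-34255417). GENCODE M21 annotates a transcript that starts farther upstream and includes both.
Myl9: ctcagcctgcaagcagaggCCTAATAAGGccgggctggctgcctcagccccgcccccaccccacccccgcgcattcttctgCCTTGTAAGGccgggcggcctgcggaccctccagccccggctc
Acta2 at -84: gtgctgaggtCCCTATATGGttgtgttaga
Acta2 at -34: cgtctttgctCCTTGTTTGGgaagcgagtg
A match describes letters in this window only. In the fixed list of 14 genes for SRF, its cofactors and targets, 9 had a fold change below 0 (median -0.11) and 0 passed over all genes. Its lowest p values belonged to Tpm4, a tropomyosin (-0.55 ± 0.20 SE, edgeR adjusted p = 0.707), and Itga5, the fibronectin receptor integrin (-0.61 ± 0.23 SE, edgeR adjusted p = 0.726).

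Of the 3 genes of myosin phosphorylation, 3 had a fold change below 0 (median -0.16) and 0 passed. The difference in their mean log2 CPM was -0.16, and 0.020 without praliciguat replicate 3. Ppp1r12b, the targeting subunit of myosin phosphatase typical of striated muscle, was at 9.22, 26.9, 27.8 and 66.5 CPM in placebo and at 40.8, 35.4, 11.6 and 13.8 CPM with praliciguat. It varied 7.21-fold between libraries (-0.36 ± 0.60 SE). Praliciguat lay above placebo by 1.27 on the log2 scale within the lower run and differed by -1.76 within the upper run, and without placebo replicate 4 the fold change was 0.26. Mylk, the kinase that activates smooth muscle myosin, had -0.16 ± 0.19, and Ppp1r14a -0.16 ± 0.33 (SE).

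The 4 ion channel genes had fold changes below 0 (median -0.27). Kcnj8, the pore subunit of the ATP-sensitive potassium channel of vessels, was at 29.8, 31.8, 25.3 and 29.2 CPM in placebo and at 23.8, 26.8, 23.6 and 19.1 CPM with praliciguat (-0.32 ± 0.12 SE, edgeR adjusted p = 0.726). Praliciguat replicate 2 exceeded placebo replicate 3, so the groups overlapped by 1 library on this scale. In TPM they did not (3.07% of all genes lower without overlap and 0.693% higher on that scale). Its partner Abcc9, the sulfonylurea receptor subunit that muscle fibres use as well, was at 240.4, 296, 248 and 327 CPM against 333, 312, 219 and 245 CPM. The group means were 278 ± 41.2 and 277 ± 53.8 CPM (SD, n = 4), a log2 fold change of -0.0039 ± 0.16 SE whose sign turned in 5 of 18 alternatives. In RefSeq both genes lie on chromosome 6 of GRCm38.p6, the assembly of mm10, Kcnj8 from 142564837 to 142571614 and Abcc9 from 142587862 to 142702766, with 16247 bases between them. Cacna1c, the L-type calcium channel, had -0.40 ± 0.23, and Kcnmb1, at 1.65 CPM or less in every library, -0.23 ± 0.51 (SE).

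Among vasoactive receptors and their regulators, 3 of 4 had a fold change below 0 (median -0.24). Rgs5 was at 760, 679, 625 and 661 CPM in placebo and at 639, 687, 431 and 473 CPM with praliciguat. Praliciguat replicates 3 and 4 were the lowest of all 8 libraries, while replicates 1 and 2 lay within the placebo range (-0.29 ± 0.16 SE, edgeR adjusted p = 0.961; -0.12 within the lower run and -0.51 within the upper). In TPM its groups did not overlap (3.07% of all genes lower and 0.693% higher on that scale). Rgs4, a related regulator, stood at 19.6, 14.1, 11.7 and 14.5 CPM against 8.43, 10.6, 12.7 and 7.91 CPM, lower in both runs by -0.81 and -0.38 (-0.60 ± 0.20 SE, edgeR adjusted p = 0.584). Only praliciguat replicate 3 reached the placebo range. Ednra, the endothelin receptor of smooth muscle, had 0.32 ± 0.32, with its highest level of 10.6 CPM in praliciguat replicate 3. Agtr1a, an angiotensin receptor, had -0.18 ± 0.31 (SE).

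Pdgfb and its receptor both had fold changes below 0. Pdgfb, which endothelium rather than the mural cell secretes, was at 39.8, 26.0, 30.8 and 33.2 CPM in placebo and at 24.8, 26.4, 24.7 and 23.2 CPM with praliciguat. Only praliciguat replicate 2 exceeded the lowest placebo library, and the lowest p of the set was its own (-0.39 ± 0.13 SE, edgeR unadjusted p = 0.0126, adjusted p = 0.566). The 12 endothelial markers were all below 0 too (median -0.33, 0 past the threshold), with a summed level of 648 to 841 CPM in placebo and 469 to 687 CPM with praliciguat, and with 0 of the 12 at 0 counts in all libraries. Their part in the Pdgfb value was not tested. At an edgeR unadjusted p under 0.05, 5 of the 12 were lower and 0 higher (background 3.78% and 1.95% of all genes). Tie1 and Robo4 had the lowest p of these markers (-0.45 ± 0.12 and -0.38 ± 0.14 SE, edgeR adjusted p = 0.391 and 0.726). These 2 were lower without overlap and 0 were higher (background 2.54% and 1.32%). Pdgfrb, which fibroblasts also express, was at 65.0, 65.3, 58.9 and 50.6 CPM against 45.2, 53.1, 67.9 and 44.6 CPM (-0.19 ± 0.15 SE). Its difference was -0.41 for libraries of the lower run and 0.012 for those of the upper, where praliciguat replicate 3 was its highest library. Of the 4 other genes of the family, Pdgfa, Pdgfc, Pdgfd and Pdgfra, 1 was below 0, Pdgfd (-0.41 ± 0.23 SE), and Pdgfc had 0.40 ± 0.34 (SE).

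Of the 7 genes of the pericyte surface, matrix and oxygen metabolism, 5 had a fold change below 0 (median -0.11) and 0 passed. Among the praliciguat libraries, replicates 3 and 4 both lay above replicates 1 and 2 in 3 of them (Cspg4, Mcam and Aoc3) and both lay below in 2 (Vtn and Higd1b). The difference in their mean log2 CPM was -0.042, and 0.053 without praliciguat replicate 1. Cspg4 was at 19.5, 18.1, 20.7 and 17.8 CPM in placebo and at 12.9, 14.8, 24.6 and 24.1 CPM with praliciguat. Praliciguat replicates 1 and 2 lay below, and replicates 3 and 4 above, every placebo library, and the fold change was 0.010 ± 0.21 SE. In Mcam too replicates 1 and 2 were the lowest libraries and replicate 3 the highest, while replicate 4 lay within the placebo range, at 76.5, 69.2, 96.5 and 68.7 CPM against 47.5, 56.2, 97.1 and 89.0 CPM (-0.10 ± 0.23 SE). Within the lower run the differences were -0.44 for Cspg4 and -0.49 for Mcam, and within the upper run 0.34 and 0.19. Whether the runs differ in the effect of the diet was not tested.

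Aoc3, an amine oxidase of smooth muscle that adipocytes also make in quantity, had the largest fold change above 0 (0.97 ± 0.47 SE, edgeR adjusted p = 0.928). It was at 44.0, 46.9, 114 and 34.5 CPM in placebo and at 79.1, 59.3, 195 and 136 CPM with praliciguat. Placebo replicate 3 exceeded praliciguat replicates 1 and 2. The fold change was 1.48 without placebo replicate 3 and 0.61 without praliciguat replicate 3. The 6 adipocyte markers had the same sign, with 6 of 6 fold changes above 0 (median 1.04, 0 past the threshold). Their summed level was 164 to 674 CPM in placebo and 297 to 916 CPM with praliciguat. Their mean log2 CPM was highest in praliciguat replicates 3 (6.87) and 4 (6.62) and placebo replicate 3 (6.37). Single markers could depart from this order. Cfd was at 141 CPM in praliciguat replicate 1, above praliciguat replicate 4 (59.0 CPM) and placebo replicate 3 (51.4 CPM). In placebo replicate 2 Cfd was at 57.8 CPM. None of the 6 was at 0 in all libraries, and their part in the Aoc3 value was not tested. Higd1b, a hypoxia-inducible domain protein, had -0.48 ± 0.23, Ndufa4l2, a mitochondrial protein induced by low oxygen, -0.31 ± 0.19, Vtn, the matrix protein vitronectin, -0.21 ± 0.15 and Cox4i2, a cytochrome oxidase subunit isoform, -0.11 ± 0.28 (SE).

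Both tested transcription factors were scarce. Foxs1, a forkhead factor of mural cells, was at 1.78, 1.13, 1.58 and 1.56 CPM in placebo and at 0.824, 0.661, 1.49 and 1.60 CPM with praliciguat (-0.39 ± 0.34 SE). Praliciguat replicates 1 and 2 were lowest and replicates 3 and 4 lay among the placebo libraries. Tbx18, a T-box factor of mural cells, had 0.54 ± 0.29 (SE), with its highest level, 4.75 CPM, in praliciguat replicate 3. Placebo replicate 1 was its highest placebo library, at 2.94 CPM, and without that library the groups of Tbx18 did not overlap. In that setting 2.03% of all genes were higher without overlap and 3.32% lower.

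**Figure D4:**
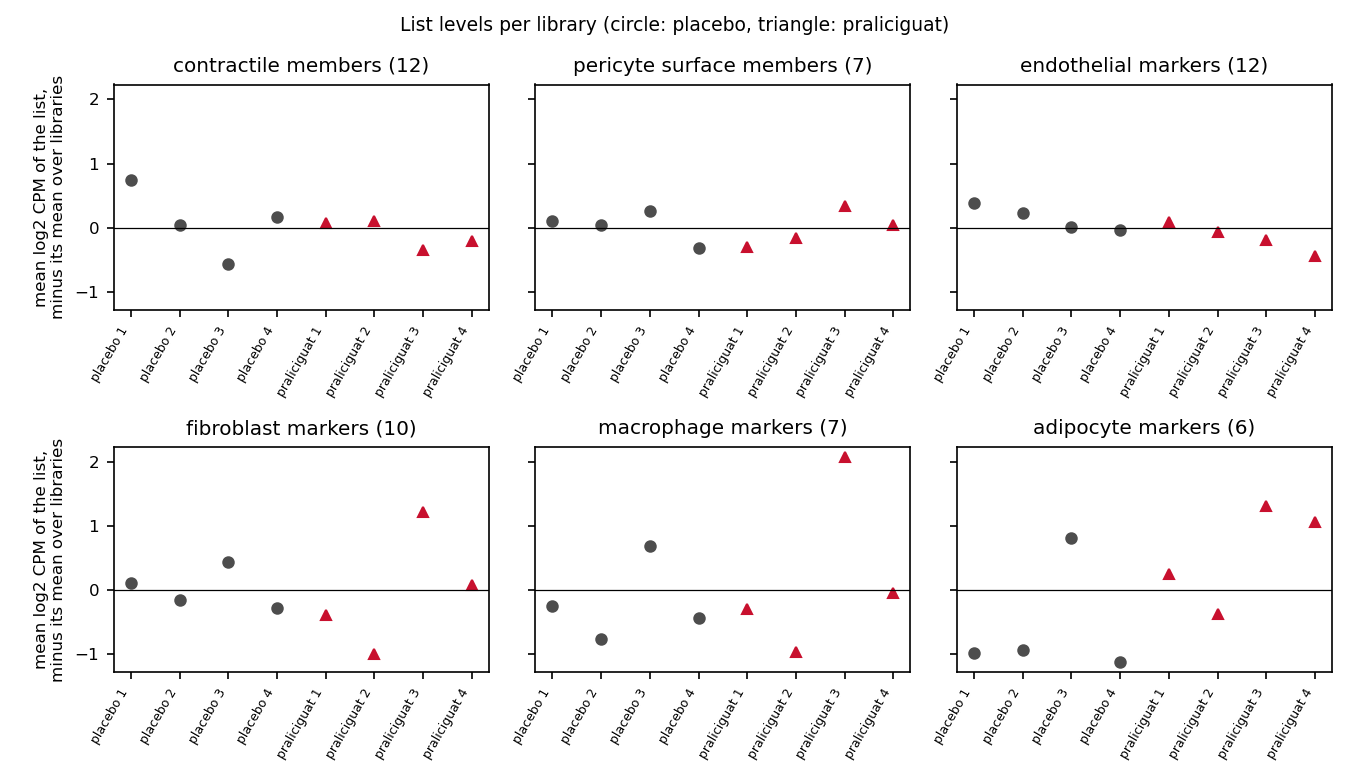
Mean log2 CPM of 6 gene lists in each library, minus the list's mean over the 8 libraries (grey circles, placebo; red triangles, praliciguat; number of genes in parentheses). The contractile members were highest in placebo 1, while fibroblast, macrophage and adipocyte markers were high in praliciguat 3 and in placebo 3, where contractile members were low.

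Libraries were also set apart by the run of their title numbers. In 18 of 34 members (52.9%) praliciguat replicates 3 and 4 both lay below replicates 1 and 2, against 27.9% of all genes tested, and in 6 (17.6%) both lay above, against 29.2%. The 6 included Cspg4, Mcam and Aoc3; the 18 included Acta2, Myh11, Tagln, Lmod1, Rgs5, Abcc9 and Kcnj8. In placebo, replicates 3 and 4 lay below replicates 1 and 2 in 12 of 34 members (35.3%, against 19.3% of all genes). Between the diets, 20 members (58.8%) were below 0 within both runs and 3 (8.82%) above 0 within both, against 20.2% and 20.5% of all genes. In mean log2 CPM the members differed by -0.24 in the lower run and by -0.074 in the upper. The lower run holds placebo replicate 1, the highest library in 20 of the 34 members. With the run as a block in the fit, the smallest edgeR adjusted p of a member was 0.438. Fibroblast markers, with 9 of 10 above 0 (median 0.23, 0 past the threshold), and macrophage markers, with 7 of 7 above 0 (median 0.77, 0 past the threshold), were highest in praliciguat replicate 3. In mean log2 CPM the fibroblast list instead differed by -0.051 between diets, by -0.67 in the lower run and 0.57 in the upper, and the macrophage list by 0.38, by -0.12 in the lower run and 0.89 in the upper. Their part in the levels of the members was not tested.

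Other genes of the mural cell and of its relaxation pathway came from fixed lists. Of 26 further mural genes 16 were below 0 (median -0.098), with 0 past the threshold. Heyl, a Notch target of mural cells, was at 21.8, 21.7, 20.8 and 19.6 CPM in placebo and at 11.2, 16.3, 16.4 and 15.7 CPM with praliciguat (-0.49 ± 0.13 SE, edgeR adjusted p = 0.385). Map3k7cl was at 25.6, 23.2, 21.8 and 21.8 CPM against 7.10, 5.36, 14.5 and 14.3 CPM (-1.15 ± 0.30 SE, edgeR adjusted p = 0.396). In both genes every praliciguat library lay below every placebo library, as in 2.54% of all genes. In the other direction, Tpm1, a tropomyosin that muscle fibres also make, was without overlap (0.29 ± 0.12 SE, edgeR adjusted p = 0.779; 1.32% of all genes), and Sncg, a synuclein, had an unadjusted p under 0.05 (1.19 ± 0.49 SE, edgeR adjusted p = 0.812); both were picked out after their values were seen. Of 17 genes through which nitric oxide and cGMP relax smooth muscle, 16 were below 0 (median -0.13) and 0 passed. Its lowest p belonged to Itpr1, the calcium release channel that the cGMP kinase restrains (-0.46 ± 0.15 SE, edgeR adjusted p = 0.588), and to Ppp1r12c, a phosphatase subunit (-0.24 ± 0.11 SE). Gucy1a2, a subunit of soluble guanylate cyclase, was lower without overlap, as were 2.54% of all genes. It was at 3.96, 3.94, 3.91 and 4.39 CPM in placebo and at 3.69, 3.85, 3.18 and 2.59 CPM with praliciguat (-0.29 ± 0.18 SE, edgeR adjusted p = 0.984). This gene too was picked out after its values were seen. Of 15 tested genes for constrictor and dilator signals 12 were below 0 (median -0.15) and 0 passed. Adra1a, an alpha-adrenergic receptor, was at 0.935, 0.891, 0.995 and 0.871 CPM in placebo and at 1.29, 1.17, 1.81 and 1.53 CPM with praliciguat, without overlap (0.65 ± 0.24 SE, edgeR adjusted p = 0.726). Edn1, the constrictor peptide endothelin, had -0.59 ± 0.34 (SE).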

How the data were processed

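The authors' deposited tables, 1 per library, hold RSEM expected counts, TPM, FPKM and effective length for 24848 gene symbols, per the file headers. Expected counts are estimated reads per gene. TPM values, also deposited, are scaled by length. FPKM as deposited was not used here. STAR 2.5.3a, RSEM 1.2.28, Trimmomatic, FastQC and the build mm10 are listed in the submitters' processing notes. Per the labels' protocols, RNA was isolated with Tri Reagent and libraries were made with a stranded mRNA kit. No source used here gives the strand setting for counting, and GENCODE M21 has a gene on the other strand overlapping 16 of the 35 members (Tagln with Pcsk7 and Ndufa4l2 with Shmt2 among them), so these counts are uncertain.

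Expected counts were rounded and tested with edgeR 4.0.16 in R 4.3.3 (filterByExpr, TMM, robust quasi-likelihood F test, group as the only term, Benjamini-Hochberg over 13569 genes, threshold 0.05) and checked on simulated data. CPM are relative to TMM-scaled library sizes. List means used log2 CPM with a prior count of 2. SE is the log2 fold change divided by the root of F. Replicates were numbered in accession order. Alternatives were DESeq2 1.42.0, limma 3.58.1 (voom, and log2(TPM + 1) or log2(TPM + 0.1)), other scalings and filters, effective lengths, the run as a block, and each library left out. Per-library values and full statistics were given, by rule, for Acta2, Myh11, Tagln, Rgs5, Pdgfrb and Cspg4, for members with an unadjusted p under 0.05 or groups without overlap, for the member of highest TPM in each role, and for the 3 largest changes; of other lists, for genes past the threshold or else the 2 of lowest p. Myl9 was added after its values were seen. The members, lists and rules were chosen with earlier results of these data known. RefSeq coordinates and sequences are those of GRCm38.p6.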

Additional observations from a re-analysis of the deposited data

Results flagged for a closer look

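Of 82 groups of 4 libraries examined for a library standing apart from the other 3, 6 did so by Dixon's ratio (gap to the nearest library over the range, above its critical value), where chance gives about 1 in 20. Aoc3 in placebo had a ratio of 0.845, from placebo replicate 3 at 114 CPM, and the adipocyte markers in placebo 0.903, from the same library. Cnn1 with praliciguat had 0.84, from replicate 2 at 2.80 CPM. The list of SRF, its cofactors and targets with praliciguat had 0.958 and the regenerating muscle markers 0.897, both from replicate 3. The genes for constrictor and dilator signals in placebo had 0.904, from replicate 1.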

How the results depend on the processing

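In all 18 alternatives 0 members were called lower and 0 higher, and the median log2 fold change stayed below 0 (-0.24 to -0.20; with 1 library left out, from -0.32 without placebo replicate 3 to -0.094 without placebo replicate 1). Between 27 and 29 members were below 0 (21 to 27 with 1 library left out). Of the members 34 were tested, but 33 at 1 CPM in 4 libraries, 35 with no filter on low counts and 32 in TPM. The share of all genes below 0 ran from 44.1% (DESeq2 size factors) to 57.4% (log2(TPM + 0.1)). With 1 library left out it ran from 44.6% (placebo replicate 1) to 49.0% (praliciguat replicate 3). The number of members without overlap was 0 with upper quartile scaling, 3 with log2(TPM + 1) and with log2(TPM + 0.1), where Kcnj8 and Rgs5 joined Smtn (3.07% of all genes lower and 0.693% higher), and 1 to 5 with 1 library left out; 5 was reached without placebo replicate 3 (Actg2, Kcnj8, Rgs4 and Smtn lower, Aoc3 higher; 3.92% of all genes lower and 3.08% higher there). Of 19 named members, 11 kept their sign in all 18. Abcc9 was at 0.00044 with no filter on low counts. Cspg4 was at -0.030 with limma-voom, -0.059 and -0.083 with log2(TPM + 1) and log2(TPM + 0.1), and -0.043 with the run as a block. With 1 library left out the ranges were -0.42 to 0.19 for Acta2, -0.37 to 0.26 for Myh11, -0.75 to 0.00067 for Tagln, -0.31 to 0.22 for Myl9, -0.10 to 0.096 for Abcc9, -0.13 to 0.16 for Cspg4, -0.27 to 0.056 for Mcam and -0.69 to 0.26 for Ppp1r12b; the cause was not tested. Without a change of sign, the ranges were 0.61 to 1.48 for Aoc3, -1.78 to -0.57 for Actg2, -1.04 to -0.086 for Cnn1, -0.59 to -0.21 for Foxs1, -0.41 to -0.18 for Rgs5 (lowest in size without praliciguat replicate 3), -0.33 to -0.11 for Pdgfrb (without praliciguat replicates 3 and 4) and 0.056 to 0.24 for Nexn (without praliciguat replicates 1 and 3). With log2(TPM + 1), Actg2 was at -0.73 and Cnn1 at -0.32. No paired analysis was possible because the groups share no replicate numbers in the labels.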
